A study of Rattus norvegicus with 4 samples.

Results

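Antigen presentation was followed through 9 genes of the rat major histocompatibility complex (MHC) pathways. The class II side held the invariant chain Cd74 and the chains RT1-Ba, RT1-Bb, RT1-Da and RT1-Db1. The class I side held the light chain B2m and the peptide loading genes Tap1, Tap2 and Tapbp. All probe sets with 1 of these gene symbols were taken, which gave 14 of the 15866 probe sets on the chip, 8 of class II and 6 of class I. The tissue was oxyntic mucosa, which lines the corpus of the stomach and secretes acid, scraped from female Sprague-Dawley rats of 8 weeks and studied at 21 days. Octreotide LAR, a slow-release depot of a somatostatin analogue, was given at 5 mg per animal to 6 rats, whose RNA was pooled by 2 onto 3 Affymetrix RAE230A chips (pools 1 to 3). The LAR vehicle was given to 8 rats, whose RNA was pooled onto 1 chip. For the vehicle chip the sample title gives the group used here, while its source name speaks of octreotide LAR. A scraping holds every cell type of the mucosa, so fewer cells of a type and less RNA per cell cannot be told apart.

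MHC class II molecules show peptides from the endosome to CD4 T cells, and are made mainly by dendritic cells, macrophages and B cells and, under interferon gamma, by epithelium. Each is a pair of an alpha and a beta chain, escorted to the endosome by the invariant chain. Class I molecules show peptides from the cytosol to CD8 T cells and are found on almost all nucleated cells. Their heavy chain pairs with beta-2 microglobulin, and the transporter of Tap1 and Tap2 feeds them peptides while tapasin, encoded by Tapbp, holds them ready.

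The 9 promoters were compared first, for the letters of elements known from promoters of MHC pathway genes. The X and Y boxes of class II promoters bind the RFX and NF-Y factors that recruit the class II transactivator, and the interferon-stimulated response element (ISRE) binds interferon regulatory factors. RefSeq windows of the GRCr8 assembly, from 250 bases before to 50 after a start site, were found for all 9 genes. Both strands were searched for CTGATTGG (Y box), TAGCAAC (X box), and GAAA and GAAA separated by any 2 bases (ISRE). The Y box letters stood in all 4 class II chains, not in Cd74 and in none of the 4 class I genes. They occurred in 3.55% of 27457 promoters of the same length. All letters were chosen after the 9 promoters were read, so this share and those below do not test an excess in these genes. The pieces of the 4 chains are shown because 2 of them hold the exact letters of both boxes, with capitals marking the X and Y box letters. Other spellings of a box were not searched, so a piece without the letters may still hold the box.
RT1-Da, chr20:4515313-4515382, plus strand: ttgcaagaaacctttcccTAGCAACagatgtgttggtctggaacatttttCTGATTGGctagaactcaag
RT1-Db1, chr20:4560226-4560295, minus strand: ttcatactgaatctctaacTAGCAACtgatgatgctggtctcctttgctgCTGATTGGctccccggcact
RT1-Ba, chr20:4576961-4577030, plus strand: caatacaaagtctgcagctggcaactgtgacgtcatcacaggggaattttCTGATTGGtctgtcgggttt
RT1-Bb, chr20:4604163-4604232, minus strand: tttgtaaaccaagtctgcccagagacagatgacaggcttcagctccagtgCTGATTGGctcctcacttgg

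The Y box letters began 46 to 83 bases before the start site. In RT1-Da and RT1-Db1 the X box letters lay upstream of them, at a distance of 25 and 24 bases. Cd74 held the X box letters alone, 72 bases before its start, and Tap2 held them 162 bases before its start; 3.54% of all promoters held them. The X box letters thus stood in 3 of the 5 class II genes and 1 of the 4 class I genes.
Cd74, chr18:56527123-56527152, plus strand: cagttccacatTAGCAACgtgggcggagtg

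The ISRE letters stood in all 4 class I genes and in none of the 5 class II genes, against 3.77% of all promoters. The pieces below hold them in capitals. In Tap1 they run on the opposite strand, so the printed letters are their reverse complement, and in Tapbp 2 overlapping matches share 4 bases.
B2m, chr3:129549170-129549199, plus strand: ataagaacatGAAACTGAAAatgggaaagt
Tap1, chr20:4668645-4668674, minus strand: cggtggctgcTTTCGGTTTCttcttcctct
Tap2, chr20:4652318-4652347, minus strand: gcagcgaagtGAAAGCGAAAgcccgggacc
Tapbp, chr20:4967884-4967913, minus strand: gcctttgaggGAAAATGAAAGTGAAAggaa

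A match describes these letters only and does not show that a factor binds there. Among other genes of the class I pathway, 6 of 23 promoters held the ISRE letters, among them those of the immunoproteasome genes Psmb8 and Psmb10. Among other class II pathway genes, 1 of 16 promoters held the Y box letters, that of Rfx5, and 2 of 16 the ISRE letters, those of Ctss and Rfx5. The Y box letters also stood in 6 of the 23 class I pathway promoters. These were Calr, Psmb9 and the class I MHC genes RT1-CE5, RT1-CE16, RT1-M3-1 and RT1-S3. Neither set of letters was thus limited to 1 pathway.

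**Figure D1:**
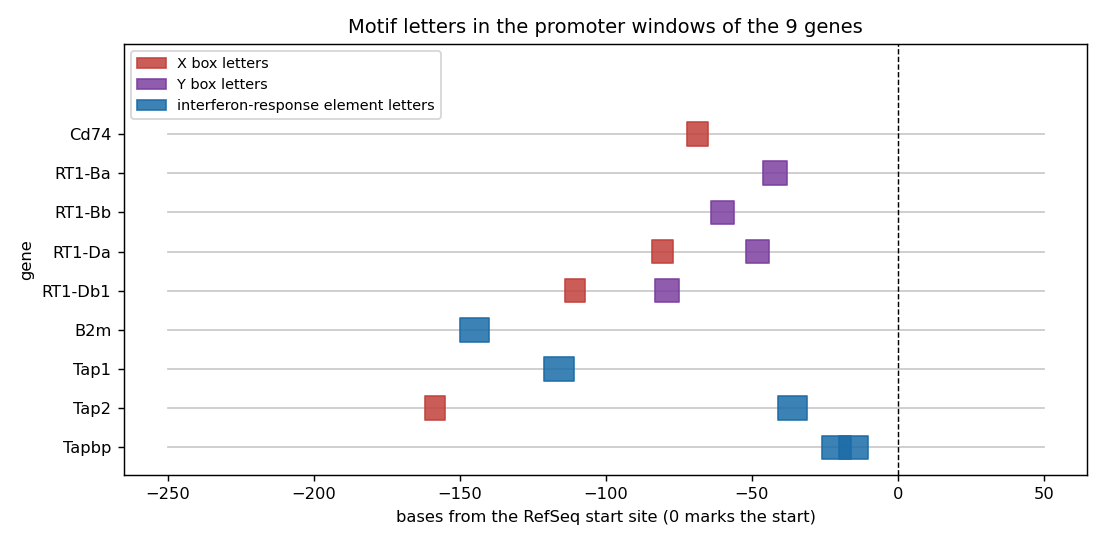
Position of the motif letters in the RefSeq promoter windows of the 9 genes, in bases from the start site. Y box letters lie in the 4 class II chains at 46 to 83 bases before the start, and interferon-response letters lie in the 4 class I genes. The letters were chosen after these promoters were read.

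No antigen presentation probe set passed the test between octreotide LAR and vehicle. The signals are linear scanner units, and a difference is that of log2(signal + 16), octreotide LAR minus vehicle. Of the 14 probe sets, 9 had a mean signal over all 4 chips of at least 149.7, the 40th percentile, and entered the test of 9520 probe sets. None was called by limma at an adjusted p under 0.05, where 0.0840% of the 9520 tested probe sets were called, 7 of them higher and 1 lower. At an unadjusted p under 0.05 there was 1 of the 9, the dimmer RT1-Ba probe set, against 4.62% of all tested. All 3 treated chips lay on 1 side of the vehicle chip for 8 of the 14, 6 above and 2 below. This held for 48.3% of all probe sets on the chip, 24.4% above and 24.0% below. The vehicle group is a single chip with no error of its own, and the test takes its spread from the treated chips.

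**Figure D2:**
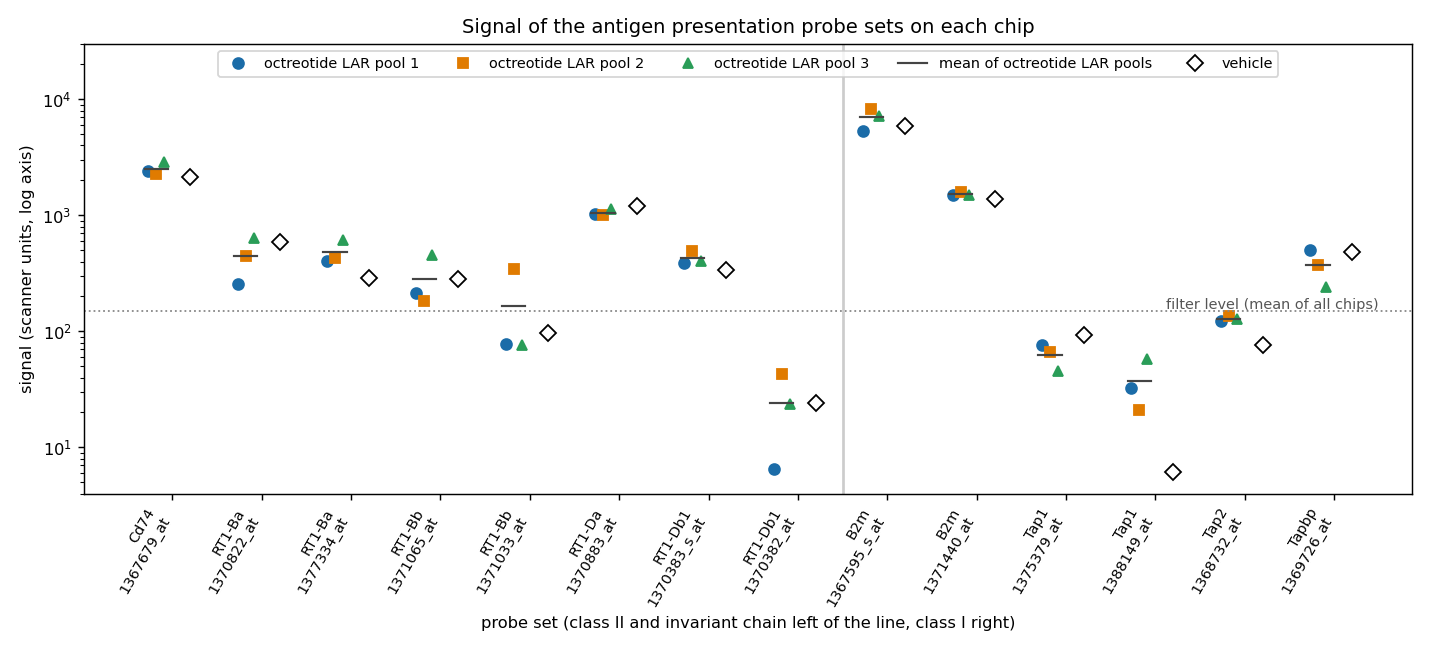
Signal of the 14 probe sets on each chip on a log axis, with the 3 octreotide LAR pools and their mean left of the vehicle chip. The vehicle chip lies within the range of the pools for 6 probe sets, and the pools spread widely for RT1-Bb.

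Cd74, the chaperone that fills the class II groove until a peptide is loaded, had signals of 2412.1, 2253.5 and 2906.0 on octreotide LAR pools 1, 2 and 3, against 2123.8 on the vehicle chip. All treated signals lay above the vehicle signal, that of pool 2 by the least. The treated mean was 2523.9 ± 340 (SD, n = 3), which lay 0.24 above vehicle on the log2 scale (95% interval -0.17 to 0.65, limma adjusted p = 0.9998), or 0.13 without pool 3.

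RT1-Da, the alpha chain of the rat counterpart of human HLA-DR, had signals of 1018.8, 998.8 and 1139.5 on octreotide LAR pools 1, 2 and 3, against 1205.1 on the vehicle chip. Here all treated signals lay below the vehicle signal, by little on pool 3. The treated mean was 1052.4 ± 76.1 (SD, n = 3), at a log2 difference of -0.20 (95% interval -0.61 to 0.22, limma adjusted p = 0.9998). RT1-Db1, a beta chain that pairs with it, had 385.7, 494.5 and 406.8 on octreotide LAR pools 1, 2 and 3, against 338.4 on the vehicle chip, in its brighter probe set. All treated signals lay above the vehicle signal, the opposite side from the alpha chain. The treated mean was 429.0 ± 57.7 (SD, n = 3), at a log2 difference of 0.32 (95% interval -0.22 to 0.86, limma adjusted p = 0.9998). The second RT1-Db1 probe set was dim, with 6.5 to 43.0 on the treated chips and 24.3 on the vehicle chip.

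RT1-Ba, the alpha chain of the counterpart of human HLA-DQ, gave opposite readings on its 2 probe sets. The brighter one had signals of 257.0, 443.0 and 635.5 on octreotide LAR pools 1, 2 and 3, against 592.2 on the vehicle chip. The dimmer one had 402.9, 428.5 and 618.7 on the same pools, against 287.1 on the vehicle chip. The vehicle chip thus lay inside the range of the pools in the first and below all pools in the second. The brighter one had a treated mean of 445.2 ± 189 (SD, n = 3) and was at -0.49 on the log2 scale (95% interval -1.29 to 0.31, unadjusted p = 0.209, limma adjusted p = 0.9998). The dimmer one had a treated mean of 483.4 ± 118 (SD, n = 3) and was at 0.70 (95% interval 0.10 to 1.29, unadjusted p = 0.0265, limma adjusted p = 0.9998). The value of the brighter one was -0.15 without pool 1 and -0.78 without pool 3. The brighter minus the dimmer was -1.62, -0.96 and -0.97 on pools 1, 2 and 3. Pool 3 was the highest treated pool and pool 1 the lowest in both.

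RT1-Bb, the beta chain that pairs with RT1-Ba, varied most among the pools. Its brighter probe set had 212.8, 183.7 and 452.8 on octreotide LAR pools 1, 2 and 3, against 282.4 on the vehicle chip, and the groups overlapped. The treated mean was 283.1 ± 148 (SD, n = 3), at a log2 difference of -0.10 (95% interval -1.0 to 0.80, limma adjusted p = 0.9998), and it was 0.04 without pool 1 and 0.13 without pool 2. The dimmer probe set, with a mean over all chips of 148.7, lay just under the filter; it had 78.1, 345.1 and 75.7 on the pools, against 96.0 on the vehicle chip. Pool 2 was thus the highest in one probe set and the lowest in the other.

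B2m, the constant light chain of class I molecules, had 5359.5, 8333.9 and 7238.3 on octreotide LAR pools 1, 2 and 3, against 5901.7 on the vehicle chip, in its brighter probe set. The groups overlapped, with pool 1 below the vehicle chip, and the log2 difference was 0.22 (95% interval -0.24 to 0.68, limma adjusted p = 0.9998). That difference was 0.40 without pool 1 and 0.08 without pool 2. Its second probe set had 1494.5, 1584.9 and 1485.6 on the pools, against 1370.7 on the vehicle chip. There the pools were close together and all above the vehicle chip, at a log2 difference of 0.15 (95% interval -0.24 to 0.54, limma adjusted p = 0.9998).

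Tapbp, the gene of tapasin, had 504.1, 374.1 and 243.3 on octreotide LAR pools 1, 2 and 3, against 482.0 on the vehicle chip. Pool 1 lay near the vehicle chip and pool 3 lowest. The treated mean was 373.8 ± 130 (SD, n = 3), at a log2 difference of -0.41 (95% interval -1.13 to 0.31, limma adjusted p = 0.9998), which was -0.65 without pool 1 and -0.14 without pool 3. Both transporter genes were under the filter and were tested only under a filter at the 20th percentile or none, where neither was called. Tap2, a chain of the peptide transporter, had 121.7, 134.3 and 128.9 on the pools, against 76.4 on the vehicle chip, and the groups did not overlap. Its log2 difference was 0.64 in the fit without the filter (95% interval -0.40 to 1.69, unadjusted p = 0.192, limma adjusted p = 0.9996). That fit called 0.00% of the 15866 probe sets and had 4.89% at an unadjusted p under 0.05. Tap1 had 75.8, 67.0 and 45.7 on the pools, against 92.4 on the vehicle chip, in its brighter probe set. Its other probe set had 32.7, 20.8 and 57.8, against 6.1 on the vehicle chip, so the 2 Tap1 probe sets lay on opposite sides of the vehicle chip. At such signals the pseudocount of 16 largely sets the size of a log2 difference, and no fold is given.

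**Figure D3:**
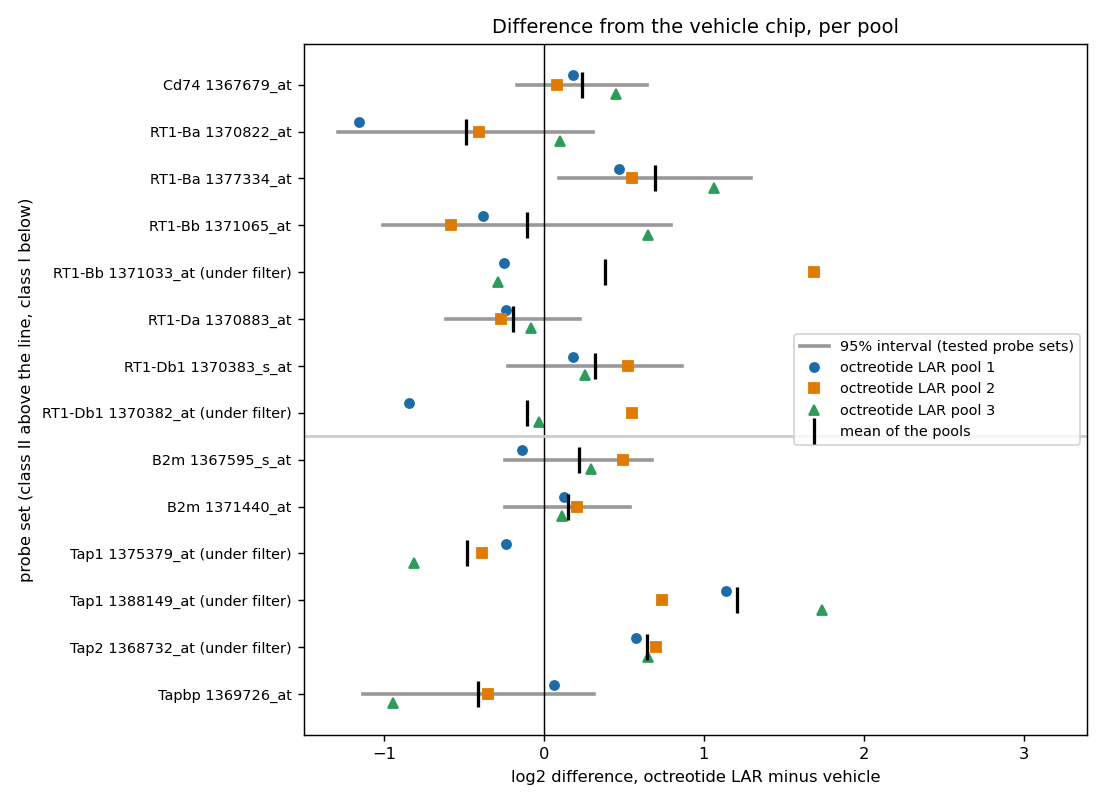
Log2 difference of each pool from the vehicle chip for the 14 probe sets, with the mean of the pools and the 95% interval of the tested ones. The interval leaves out 0 only for the dimmer RT1-Ba probe set, and the brighter one has its mean on the opposite side.

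The class II members were then set against the class I members on each chip, using the brightest probe set of each gene. The class II mean was -0.28, -0.13 and 0.28 on the log2 scale on pools 1, 2 and 3, relative to the vehicle chip. The class I mean was 0.06, 0.12 and -0.20, and 2 of its 4 genes, Tap1 and Tap2, were the dim ones under the filter. Class II minus class I was therefore -0.35, -0.24 and 0.48, a mean of -0.04 ± 0.45 (SD, n = 3), so its sign differed between pools and no shift larger than their spread was seen. The median log2 difference was -0.10 over the 5 class II members and -0.10 over the 4 class I members, beside 0.00 over all 9520 probe sets tested. With the tested probe sets of each gene averaged, the class II median was 0.10, so its direction depends on the choice of probe set. That averaging leaves out Tap1 and Tap2.

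The spread of the class II mean among the treated pools was larger than its mean difference from vehicle, -0.05 ± 0.29 (SD, n = 3). In the brightest probe sets, pool 3 was the highest treated pool for 4 of the 5 class II members (Cd74, RT1-Ba, RT1-Bb and RT1-Da). This pattern was seen after the values were known. Over all 8 class II probe sets pool 3 was highest in 5, and it was lowest in the dimmer RT1-Bb probe set. It was highest for 31.5% of tested probe sets. Among the brightest probe sets of the 4 class I members it was highest in none, but those of Tap1 and Tap2 were under the filter. In the dimmer Tap1 probe set, also under the filter, pool 3 was highest. Over 8 tested genes of macrophages and dendritic cells the median was -0.04, -0.13 and 0.30 on pools 1, 2 and 3, and none was called by limma. Their summed signal over the 13 genes on the chip was 3362.7 to 4260.0 on the treated chips and 3509.5 on the vehicle chip, highest on pool 3. Among them C1qb, a complement component made by tissue macrophages, had 187.3, 225.3 and 297.5 on octreotide LAR pools 1, 2 and 3, against 138.1 on the vehicle chip (limma adjusted p = 0.9998). Its partner C1qa had 352.7, 221.7 and 450.0 on the pools, against 241.2 on the vehicle chip. In both, pool 3 was the highest, and only C1qb lay above the vehicle chip on all pools. Cd83, a marker of mature dendritic cells, was at 0.17 on the log2 scale with overlapping groups. Genes of all leukocytes had a median of 0.01, -0.05 and 0.21 over 4 tested genes, and a summed signal of 3255.3 to 3865.4 on the treated chips and 3235.4 on the vehicle chip over 10 genes. Of its named genes, Lcp1, an actin bundler of leukocytes, was at 0.11, Arhgdib at 0.15 and Cd48 at -0.26. The part of these cells in the class II values was not tested.

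**Figure D4:**
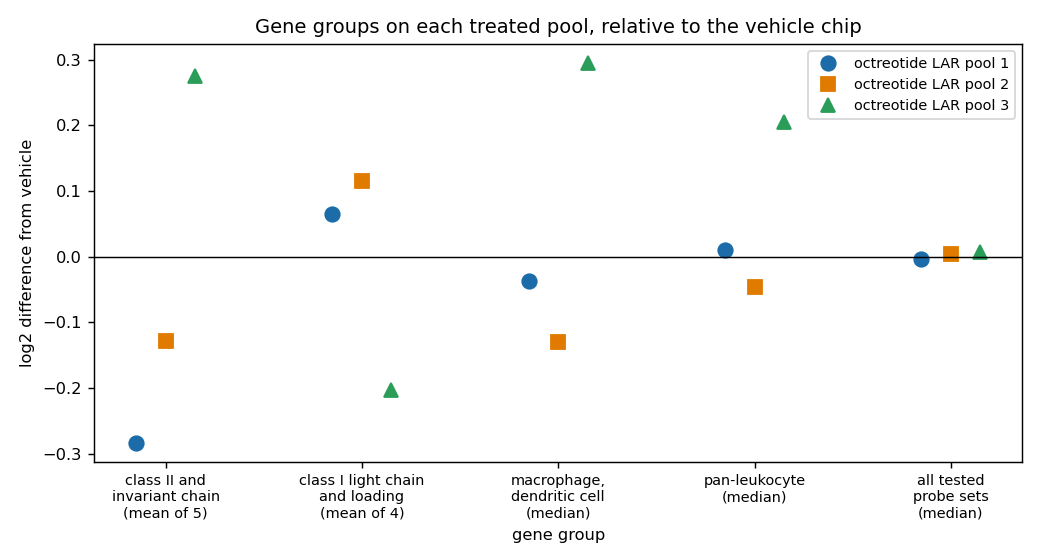
Log2 difference from the vehicle chip on each octreotide LAR pool for the class II mean, the class I mean and the medians of the macrophage and dendritic cell genes, the leukocyte genes and all tested probe sets. Pool 3 is the highest pool in the class II, macrophage and leukocyte groups and the lowest in class I.

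Lymphocyte genes were dim. Of 16 T and NK cell genes on the chip, 2 passed the filter, Cd3g and Lck, and neither was called, at log2 differences of 0.13 and -0.47. The summed signal of the 16 was 1390.7 to 1552.0 on the treated chips and 1487.3 on the vehicle chip. The chip named 2 B cell genes of the list, Cd79b and Cd37, both under the filter, with a summed signal of 42.5 to 108.2 on the treated chips and 54.1 on the vehicle chip. Mast cell genes summed to 522.3 to 733.8 on the treated chips and 586.4 on the vehicle chip, and of their 2 tested genes the protease Mcpt1 was at 0.96 (unadjusted p = 0.0424, limma adjusted p = 0.9998) and Cpa3 at -0.00. None of the 3 tested endothelial and 6 smooth muscle genes was called. No gene of these lists was listed at 0. Genes of the oxyntic gland were bright, at a summed signal of 276431.9 to 302821.2 on the treated chips and 285094.0 on the vehicle chip over 11 genes, and 1 of them was called lower, Hdc, the histamine-forming enzyme of ECL cells. Squamous epithelium genes summed to 6164.0 to 9585.9 on the treated chips and 1892.4 on the vehicle chip over 11 genes, and 5 of these were called higher, among them the keratins Krt1 and Krt10 and the cornified envelope gene Loricrin. That sum was highest on pool 1, where the class II mean was lowest, and the part of this tissue in the antigen presentation values was not tested.

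No other gene of the class II pathway passed the test. Of 21 on the chip 14 were tested; none was called by limma in either direction, none had an unadjusted p under 0.05, and the median log2 difference was 0.01. The smallest p belonged to Ctss, cathepsin S, the protease that trims the invariant chain. It had 271.8, 260.1 and 537.5 on octreotide LAR pools 1, 2 and 3, against 533.7 on the vehicle chip. Pools 1 and 2 were about equally low while pool 3 matched the vehicle chip, and the log2 difference was -0.64 (95% interval -1.41 to 0.13, limma adjusted p = 0.9998). Creb1, one of the factors known to bind class II promoters, was at 0.53 and Ifi30, a thiol reductase of the endosome, at 0.31, both above the vehicle chip on all pools in their brightest probe sets. The 3 Creb1 probe sets ran from -0.65 to 0.53, so they disagreed in direction. RT1-DMa and RT1-DMb, which exchange the invariant chain fragment for peptide, were at 0.10 and -0.34. Ciita, the class II transactivator itself, had 212.6, 124.4 and 104.8 on the pools, against 155.2 on the vehicle chip, under the filter and overlapping.

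Of other class I pathway genes, 19 of 27 on the chip were tested and none was called by limma, with a median log2 difference of -0.08. At an unadjusted p under 0.05 there was 1 of the 19, against 4.62% of all tested probe sets. This was Psmb9, a catalytic subunit of the immunoproteasome that cuts peptides for class I. Psmb9 had 227.3, 222.8 and 274.5 on octreotide LAR pools 1, 2 and 3, against 133.6 on the vehicle chip. All pools lay above the vehicle chip, at a log2 difference of 0.78 (95% interval 0.05 to 1.5, unadjusted p = 0.0371, limma adjusted p = 0.9998). Another catalytic subunit, Psmb8, had 250.2, 307.4 and 302.4 on the pools, against 205.2 on the vehicle chip, a log2 difference of 0.45, while Psmb10, the third such subunit, was at -0.08. Azgp1, a secreted class I relative, and Erap1, the peptidase that trims class I peptides in the endoplasmic reticulum, were at -0.48 and -0.29 in their brightest probe sets. The 3 Erap1 probe sets ran from -0.29 to 1.10, so they too disagreed in direction. Class I heavy chains are a family of near-identical genes, and their probe sets cannot be assigned to 1 gene with certainty. The 5 RT1-CE5 probe sets ran from -1.48 to 1.46, but even the brightest of them was under the filter. That probe set had 156.8, 160.1 and 45.9 on octreotide LAR pools 1, 2 and 3, against 147.4 on the vehicle chip.

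**Figure D5:**
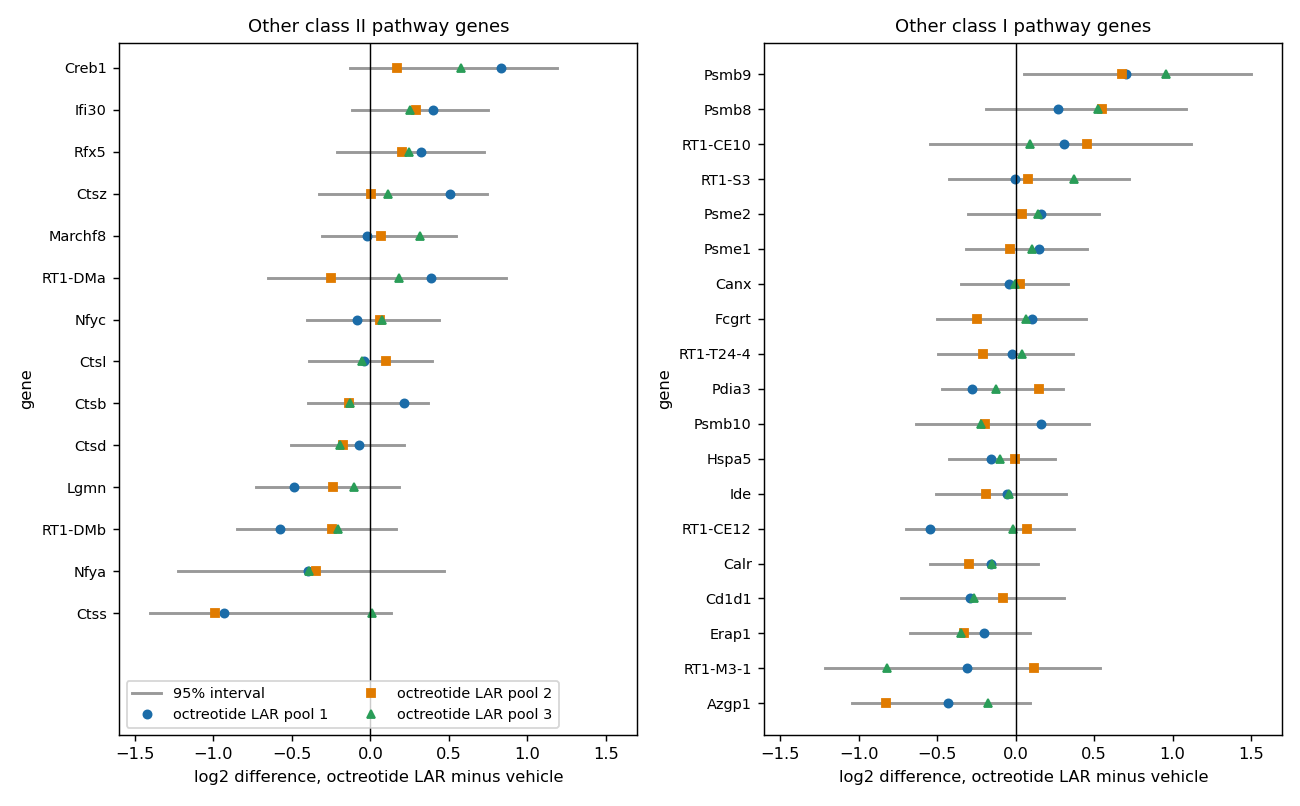
Log2 difference, octreotide LAR minus vehicle, of the tested genes of the class II pathway (left) and class I pathway (right) outside the 9 members, per pool and with the 95% interval. The interval leaves out 0 only for Psmb9, at 0.78, and that gene was not called.

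Interferons are known to induce genes of both pathways. Their signalling and target genes are given as 2 lists. Each gene was tested singly and none was called by limma, while no list was tested as a whole. In the interferon gamma list 7 of 17 genes on the chip were tested, with a median log2 difference of -0.02, or 0.15 without the filter. The tested genes were mainly receptors and signalling factors, while most induced targets of the list were under the filter. At an unadjusted p under 0.05 there was 1 of the 7, against 4.62% of all tested probe sets. This was Ifngr2, a chain of the interferon gamma receptor, with 679.3, 493.4 and 612.4 on octreotide LAR pools 1, 2 and 3, against 401.4 on the vehicle chip. All pools lay above the vehicle chip, at a log2 difference of 0.54 (unadjusted p = 0.0445, limma adjusted p = 0.9998). A second, dim Ifngr2 probe set was at -0.07. The other chain Ifngr1 was at 0.21, and Stat2, a transcription factor of interferon signalling, at -0.24. Irf1, a factor that interferon gamma induces, was at 0.15 (limma adjusted p = 0.9998), and Ifng itself was dim at 14.6 to 69.4 on the treated chips and 34.5 on the vehicle chip. In the list of type I interferon targets 14 of 17 were tested, with a median of 0.06. The antiviral genes Oasl and Rsad2 were at 0.62 and 0.84, with unadjusted p of 0.0250 and 0.0436 and a limma adjusted p of 0.9998 for both, and Oas1a, of the same family as Oasl, was at -0.46. Of cytokines and receptors linked to class II expression, 7 of 20 were tested and none was called, with Il18, an interferon gamma inducing cytokine of epithelium, at 0.59 (unadjusted p = 0.0326, limma adjusted p = 0.9998). Tgfb3 was at -0.42 and the chemokine Ccl20 at 0.37.

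The genes whose differences on the 3 pools were nearest to the class II mean were Tmem254, Sephs1, Shank3, Gstm2 and Hgs. Their root mean square distance from it was 0.02 to 0.06 on the log2 scale, among 2889 probe sets that varied at least as much over the 4 chips. A total of 127 of these 2889 probe sets lay within 0.2 of it, so the profile was not limited to a few genes. It is an average that the members did not share. In the brightest probe sets, Cd74 and RT1-Db1 lay above the vehicle chip on all pools and RT1-Da below on all. Only RT1-Ba and RT1-Bb were below on pools 1 and 2 and above on pool 3, as the mean was. Nearness to the mean is therefore not nearness to a class II gene.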

How the data were processed

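RNA of scraped oxyntic mucosa was hybridised to 4 Affymetrix RAE230A chips, 3 for octreotide LAR and 1 for vehicle. The deposited values are linear signal intensities, 1 per probe set and chip; how the authors computed and scaled them is not given in the sources used here. Every chip had a trimmed mean of 496.8 to 497.2, so shifts common to all genes are not visible. Per the file headers, the chips shared 1 lot and 1 wash protocol but used 4 fluidics modules, 1 each. Detection calls were not used here.

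Signals were transformed as log2(signal + 16). Probe sets with a mean signal under the 40th percentile were left out. The test of the rest used limma 3.58.1 under R 4.3.3 (a linear model with eBayes and trend; 2 residual and 10.7 prior degrees of freedom), two-sided, with Benjamini-Hochberg adjustment over all 9520 at a threshold of 0.05. The number of chips limits the precision. The p-values rest on the spread between pools of 2 animals, moderated strongly towards the trend over all tested probe sets. The model gives the vehicle chip, a pool of 8 animals, the same spread. On simulated chips (20 runs, 200 of 9520 changed), 37.1% of changes of 1 on the log2 scale and 82.0% of changes of 2 were called. The data gave 8 calls, and with fewer changes the adjustment is stricter, so these rates may be too high for the data. Genes were named by the platform annotation, updated by Entrez ID (12748 of 12783 matched); the brightest probe set stood for a gene. The text names all members, the 3 tested genes with the smallest p of each pathway, interferon, cytokine and leukocyte list (fewer of the other tissue lists), and the 5 genes nearest to the class II mean. Ciita, RT1-DMa, RT1-DMb, Psmb8, Psmb10, RT1-CE5, Irf1 and Ifng were chosen after their values were seen, as were the motifs after the promoters were read; 1 further motif searched is not reported here. Members and lists were chosen with earlier results of these data known. Alternatives changed the pseudocount, filter, scaling, trend, how a gene's probe sets are combined, and which treated chips enter; a filter on mean log2 values was added after seeing the data.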

Additional observations from a re-analysis of the deposited data

How the results depend on the processing

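None of the antigen presentation probe sets was called under any of the 12 alternatives, and the lowest limma adjusted p was 0.251, that of the dimmer RT1-Ba probe set without pool 1. Of 99 member differences recomputed, 2 changed sign, both of RT1-Bb: 0.04 without pool 1 and 0.13 without pool 2, beside -0.48 without pool 3. The class II median ran from -0.25 to 0.13 when a pool was left out, the class I median from -0.18 to 0.02, and class II minus class I from -0.30 to 0.12. With a gene's probe sets averaged, the class II median was 0.10, the class I median -0.11 (B2m and Tapbp alone) and their difference of means 0.19. Over all probe sets the limma count of 8 calls was 5 with a pseudocount of 64, 5 with the filter at the 20th percentile, 5 with centring on the 75th percentile and 4 with quantile normalization. It was 0 without the filter (776 at an unadjusted p under 0.05) and 0 without the trend (456). It ran from 23 to 52 when 1 treated pool was left out (45, 52 and 23 without pools 1, 2 and 3), fits that take the spread from fewer chips and keep the same vehicle chip. The added filter on mean log2 values gave 10. The causes were not tested. No paired analysis was possible because the vehicle group has 1 chip, so the groups share fewer than 2 replicate numbers.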
